A study of Homo sapiens with 20 samples.

Results

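The 8 RNA libraries of BCOR-depleted cells, out of 20 samples in the series, were compared to describe how these cells answer dexamethasone. They were taken by label: 4 libraries of cells with BCOR siRNA and dexamethasone, and 4 of cells with BCOR siRNA and the ethanol vehicle. HEK293-GR cells, derived from human embryonic kidney, were used, in which the glucocorticoid receptor (GR) is expressed constitutively. Cells received a pool of small interfering RNAs against BCOR (siBCOR) at 20 nM for 72 h. They were kept in steroid-depleted medium for 48 h and exposed to 100 nM dexamethasone, a synthetic glucocorticoid, or to an equal volume of ethanol for 6 h. Both groups thus shared the added receptor, the siRNA pool, the transfection and the medium. Another 8 libraries came from cells given a non-targeting pool (siNON) and the same vehicle or hormone, and served as the comparison. The remaining 4 samples were BCOR ChIP-seq libraries of HEK293-GR cells, 2 after 1 h of dexamethasone and 2 after 1 h of vehicle, and no siRNA is named for them.

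GR is a ligand-activated transcription factor that waits in the cytoplasm with heat shock proteins and FKBP cochaperones, moves to the nucleus when a glucocorticoid binds it, and there raises some genes and lowers others. Among the genes it is known to raise in many tissues are feedback regulators such as FKBP5, TSC22D3 and PER1 and metabolic genes such as PDK4. BCOR is a corepressor, known as a partner of the repressor BCL6 and as a subunit of PRC1.1, a noncanonical Polycomb complex.

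Counts over the chosen transcripts ran from 19034784 to 28054808 in the 8 siBCOR libraries. The labels call the 4 libraries of a group biological replicates, although the series text names 3; all 4 were used, and p-values measure the spread between these cultures. Levels are given as CPM, which sets counts against the scaled size of the library so that libraries of different depth can be compared. BCOR (chromosome X, 39910499 to 39956719, build hg19, as for all positions of genes) was 8.77-fold lower than in siNON cells in vehicle and 6.36-fold lower in dexamethasone. Among the siBCOR libraries, vehicle replicate 2 lay farthest from its group, with a root mean square deviation of 0.257 on the log2 scale against 0.143 to 0.195 in the other 7. Farther out still were 2 siNON libraries, vehicle replicate 3 at 0.266 and dexamethasone replicate 4 at 0.28, which enter here because all 16 libraries share 1 estimate of spread. All 15 listed HEK293 markers had counts in the siBCOR libraries, and 14 of them passed the filter on low counts. Of 13 immune markers 4 passed the filter on low counts, 0 were called by edgeR or DESeq2, 1 had an unadjusted p under 0.05, and MS4A1 had no counts. Because the RNA is bulk, fewer cells of a type and less RNA per cell cannot be told apart.

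Dexamethasone changed 3777 of 16432 tested genes in the BCOR-depleted cells, 23.0% at a false discovery rate of 0.05 (edgeR quasi-likelihood test). Of these, 1715 rose (10.4% of the genes tested) and 2062 fell (12.5%). Fewer genes rose than fell in this fit, an order that turned in some fits on fewer libraries. The rises were steeper: the median called rise was 1.52-fold and the median called fall 1.33-fold. At 2-fold or more, 406 genes rose (2.47%) and 181 fell (1.10%). At 4-fold or more the counts were 140 and 17, at 8-fold or more 72 and 2, and at 16-fold or more 44 and 0. The 2 genes that fell at least 8-fold were ADAMTS1 and MEOX1, a homeobox gene (log2 fold change -3.46, adjusted p = 7.07e-09), which had too few counts for the naming rule and was singled out after its values were seen. The risen genes started lower, with a median vehicle level of 14.7 CPM, against 32.2 CPM for the fallen genes and 22.3 CPM for all genes tested.

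The 2 groups of libraries did not overlap for 1589 of the risen genes (92.7%) and 1903 of the fallen genes (92.3%). Over all tested genes, whether called or not, the libraries were apart upward for 15.3% and downward for 15.4%. The number of rises moved with the libraries in the fit. It was 3096 of 16527 genes, with 2538 falls, when siNON vehicle replicate 3 and siNON dexamethasone replicate 4 were left out. From the 8 siBCOR libraries alone it was 2379 of 15979, with 2298 falls. More genes rose than fell in both fits and without siNON vehicle replicate 3 alone (2379 and 2101), unlike in the main fit. List counts given below for fits on fewer libraries are to be read beside such totals. The larger changes moved less when single libraries were left out in turn, with 401 to 433 genes up and 169 to 188 genes down at 2-fold or more. Protein-coding genes made up 88.6% of the risen and 92.2% of the fallen genes, against 87.3% of all tested.

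**Figure D1:**
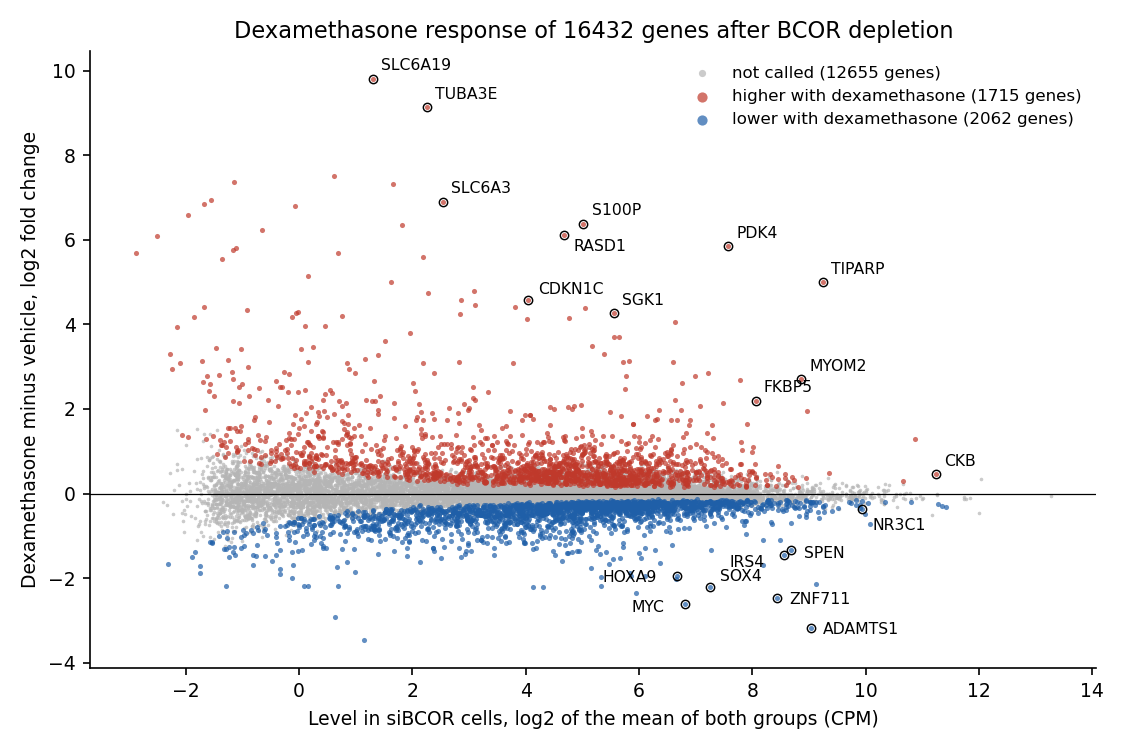
Log2 fold change of dexamethasone against vehicle in siBCOR cells (vertical axis) against the level of the gene as log2 CPM, the mean of both groups (horizontal axis), for 16432 genes. Red points rose, blue points fell and grey points were not called; red points reach beyond 16-fold from low levels up to that of TIPARP, and no blue point does. Fitted values of genes with almost no vehicle counts, such as SLC6A19 and TUBA3E, depend on the small count added in the fit.

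The steepest rises were of genes that were silent or nearly so without hormone. SLC6A19 (chromosome 5, 1201710 to 1225230), an amino acid transporter of kidney and gut, had 0 counts in all 4 vehicle libraries and 5.76, 4.38, 5.07 and 4.64 CPM in dexamethasone libraries 1 to 4. Against the limit of 3 counts over the vehicle group it was at least 145-fold higher (adjusted p = 1.4e-08). On the same end of chromosome 5, SLC6A3 (1392905 to 1445543), the dopamine transporter, stood at 0.158, 0, 0.0494 and 0.139 CPM in vehicle and 11.5, 10.5, 13.1 and 11 CPM in dexamethasone (log2 fold change 6.90 ± 0.235, adjusted p = 4.18e-13). Both genes were at or close to 0 in every vehicle library, and the groups did not overlap. The alpha-tubulin gene TUBA3E had 1 count over the vehicle group and 919 over the dexamethasone group, with levels there of 10.6, 9.56, 8.95 and 8.97 CPM (adjusted p = 2.47e-13). TUBA3D, another steep rise (log2 fold change 4.75), and TUBA3C, with 0 counts in vehicle and at least 18.3-fold higher in dexamethasone, are near-identical copies, so counting may have split reads between the 3 genes. The noncoding LOC100506585 (3 counts over the vehicle group, 597 with dexamethasone) and LOC285097 (log2 fold change 6.35) were as low before hormone. Outside the naming rule and chosen after their values were seen, IGFBP1, an insulin-like growth factor binding protein of liver, and PNLIP, pancreatic lipase, also had 0 vehicle counts. They were at least 19.9-fold and at least 26.6-fold higher with hormone.

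Other steep rises started from a measurable level. S100P (chromosome 4, 6695566 to 6698897), a small calcium-binding protein, stood at 0.671, 0.916, 0.692 and 0.789 CPM in vehicle libraries 1 to 4 and at 66.6, 62.4, 66.7 and 60.9 CPM in dexamethasone libraries 1 to 4. The lowest dexamethasone library was far above the highest vehicle library, and the rise was 83.5-fold (log2 fold change 6.38 ± 0.144, adjusted p = 3.42e-15). RASD1 (chromosome 17, 17397753 to 17399709), a Ras-related protein first found as induced by dexamethasone, went from 0.671, 0.723, 0.692 and 0.789 to 51.9, 53.2, 54.6 and 41.1 CPM, a 69.5-fold rise (log2 fold change 6.12 ± 0.148, adjusted p = 4.98e-15). PDK4 (chromosome 7, 95212809 to 95225925), the kinase that switches off pyruvate dehydrogenase, went from 6.67, 5.55, 6.63 and 7.05 to 410, 340, 388 and 357 CPM, a 57.7-fold rise (log2 fold change 5.85 ± 0.12, adjusted p = 1.97e-15). For both genes the groups were far apart, with dexamethasone replicate 4 the lowest for RASD1 and replicate 2 the lowest for PDK4. TIPARP (chromosome 3, 156392205 to 156424557), an ADP-ribosyltransferase that restrains the aryl hydrocarbon receptor, stood at 41.4, 29.5, 39.5 and 36.4 CPM in vehicle and at 1228, 1151, 1135 and 1185 CPM with hormone. Its mean went from 36.7 ± 5.22 to 1175 ± 41.2 CPM (SD, n = 4), which joined a 32-fold rise to one of the highest final levels (log2 fold change 5.00 ± 0.123, adjusted p = 5.6e-15). TIPARP-AS1 (log2 fold change 4.78) overlaps TIPARP on the other strand, and since the strand setting of the counting is not stated, its reads cannot be told apart from those of TIPARP. ARMC12 and LOC285847, which lie next to each other on chromosome 6, rose together (log2 fold changes 4.57 and 5.59). STEAP4, a metalloreductase (log2 fold change 5.00), and CDKN1C, a CDK inhibitor (log2 fold change 4.57), complete the 15 steepest.

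Large gains in absolute terms came both from steep rises and from genes that were already abundant. By level per kb of transcript, TIPARP went from rank 6884 of 16432 tested genes in vehicle to 190 with hormone, and S100P from 12494 to 514. The heart and muscle protein gene MYOM2 went from 126, 140, 114 and 117 to 825, 819, 848 and 740 CPM (log2 fold change 2.70 ± 0.111, adjusted p = 6.58e-12), without overlap. TIPARP and MYOM2 were among the 10 largest gains in CPM, as were CKB, TSC22D3, PDK4, FKBP5, HSPA8, CDKN1A and RHOB. CKB, brain creatine kinase, was high in both groups and rose by less (log2 fold change 0.45 ± 0.116, adjusted p = 0.00982). HSPA8, the constitutive heat shock cognate, had overlapping libraries and only just passed the test (log2 fold change 0.30 ± 0.102, adjusted p = 0.0423).

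The steepest fall by the naming rule was that of ADAMTS1 (chromosome 21, 28208606 to 28217728), a secreted metalloprotease that cuts matrix proteoglycans. It stood at 972, 948, 913 and 930 CPM in vehicle libraries 1 to 4 and at 109, 102, 109 and 97.4 CPM in dexamethasone libraries 1 to 4. Every dexamethasone library was far below every vehicle library, and ADAMTS1 was also the largest loss in CPM (log2 fold change -3.17 ± 0.0708, adjusted p = 3.42e-15). MYC (chromosome 8, 128747680 to 128755197), the growth-promoting transcription factor, went from 180, 220, 173 and 204 to 33.5, 31.4, 33.3 and 29.2 CPM (log2 fold change -2.61 ± 0.0997, adjusted p = 2.12e-12). ZNF711 (chromosome X, 84498997 to 84528368), an X-linked zinc finger protein, went from 612, 449, 666 and 618 to 109, 100, 102 and 111 CPM (log2 fold change -2.47 ± 0.206, adjusted p = 1.04e-07). Neither gene's groups overlapped, although vehicle replicate 2 was well below the other vehicle libraries for ZNF711. SOX4 (chromosome 6, 21593972 to 21598849), a developmental transcription factor, fell from 260, 246, 245 and 249 to 56.4, 52.2, 56.3 and 51.2 CPM with little spread on either side (log2 fold change -2.21 ± 0.0548, adjusted p = 5.54e-15). Repressors of differentiation were among the 15 steepest, with ID4 at a log2 fold change of -2.35 and the Notch effector HES1 at -1.98. So were regulators of signalling: GPRC5A, an orphan receptor induced by retinoic acid, at -2.21, RGS16, which turns off G-protein signals, at -2.18, and RNF122, a ubiquitin ligase, at -2.20. IGFBP5, an insulin-like growth factor binding protein, stood at -1.96, the arrestin-like ARRDC4 at -1.96 and the lipogenesis regulator MID1IP1 at -1.89. The readthrough transcript HOXA10-HOXA9 (-2.02) shares exons with HOXA9 (-1.94), so they are not independent.

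Inducible HSPA1B fell from 959, 828, 954 and 892 to 219, 190, 215 and 193 CPM (log2 fold change -2.15 ± 0.133, adjusted p = 2.15e-09). The annotation lists it with 5 copies, and its near-identical neighbour HSPA1A held few reads, so the pair is best read as 1 signal. Among the largest losses in CPM were also abundant structural genes whose relative change was small: ACTG1, cytoplasmic actin (log2 fold change -0.31), TUBB, a beta-tubulin listed with 8 copies (-0.29), and HSP90AB1, a chaperone of GR (-0.25). SCD, the desaturase that makes monounsaturated fats, went from 1456, 1353, 1303 and 1297 to 827, 836, 823 and 782 CPM (log2 fold change -0.73 ± 0.0712, adjusted p = 5.78e-07). SPEN, a transcriptional corepressor, fell at a log2 fold change of -1.34, IRS4, the insulin receptor substrate typical of HEK293 cells, at -1.45, and the ubiquitin ligase HUWE1 at -0.49. The groups did not overlap for any of these genes, but the call of HUWE1 was lost without siBCOR vehicle replicate 1 and without siBCOR dexamethasone replicate 4.

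**Figure D2:**
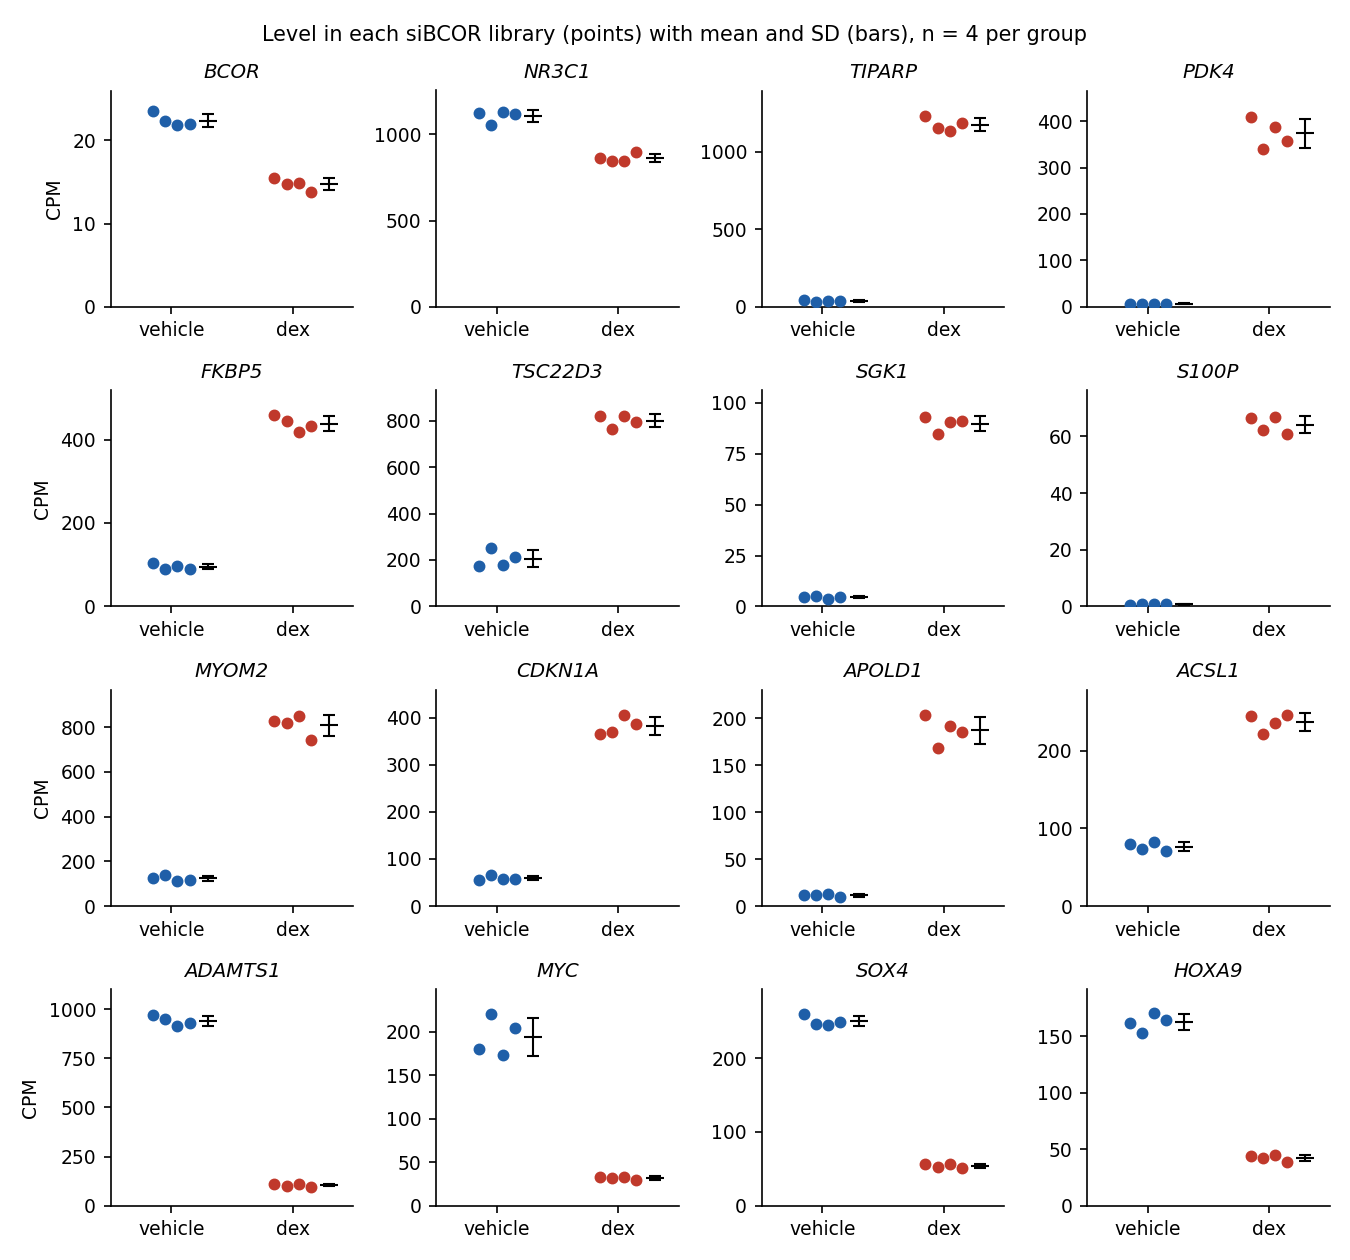
CPM of 16 genes in each siBCOR library (points; blue, vehicle; red, dexamethasone), with the mean and SD of each group (n = 4), each panel on its own linear axis from 0. In every panel the 2 groups of points are apart, upward for 10 genes and downward for BCOR, NR3C1, ADAMTS1, MYC, SOX4 and HOXA9.

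Among 34 tested members of a list of classical glucocorticoid targets, 26 rose (76.5%) and 3 fell (8.82%), against 10.4% and 12.5% of all genes. The median log2 fold change was 1.60 against 0.00349 over all genes. The 2 groups of libraries did not overlap for 28 of the 29 called members, SCNN1A being the exception. Among all called genes they did not overlap for 92.7% of the risen and 92.3% of the fallen, so this is near the usual share. FKBP5 (chromosome 6, 35541362 to 35656692), the cochaperone that lowers the affinity of GR for its ligand, went from 104, 90.3, 97.5 and 90.1 to 460, 444, 417 and 432 CPM (log2 fold change 2.20 ± 0.0556, adjusted p = 6.02e-15). SGK1 (chromosome 6, 134490384 to 134496034), a kinase that raises sodium uptake, went from 4.73, 5.3, 3.81 and 4.87 to 93.1, 84.5, 90.7 and 91.3 CPM (log2 fold change 4.26 ± 0.105, adjusted p = 5.5e-15). TSC22D3 (chromosome X, 106956452 to 106960291), the anti-inflammatory leucine zipper protein GILZ, went from 176, 252, 178 and 214 to 822, 762, 818 and 795 CPM (log2 fold change 1.96 ± 0.119, adjusted p = 1.71e-09). The 3 genes differed in size of response but each had every dexamethasone library above every vehicle library. KLF15, a transcription factor of amino acid breakdown, rose by a log2 fold change of 1.93, DUSP1, a MAP kinase phosphatase, by 1.65, and ZFP36, which marks inflammatory mRNAs for decay, by 2.04. CEBPD rose by 4.15 and FAM107A by 4.33. The smallest called rises were those of MT2A, a metallothionein (0.61), ERRFI1, an inhibitor of the EGF receptor (0.85), and SCNN1A, a subunit of the epithelial sodium channel (0.85). The fallen members were PCK1, the gluconeogenic enzyme (-2.91), GLUL, glutamine synthetase (-0.41), and GADD45A (-0.38). PCK1 had too few counts to be named among the 15 largest falls. KLF9 (0.22), TAT (0.06), CEBPB (0.06), DDIT4 (0.43) and ALPL (-0.06) were not called.

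The receptor gene itself, NR3C1 (chromosome 5, 142657496 to 142783254), stood at 1125, 1053, 1130 and 1121 CPM in vehicle and at 865, 849, 845 and 896 CPM with dexamethasone. The groups did not overlap (log2 fold change -0.36 ± 0.0532, adjusted p = 7.74e-05), and reads of the endogenous gene and of the added receptor were not told apart. Of 28 tested receptor, chaperone and coregulator genes, 2 rose (7.14%) and 7 fell (25%), against 10.4% and 12.5% of all genes tested. NR3C2, the mineralocorticoid receptor, fell by most (log2 fold change -1.08 ± 0.0902, adjusted p = 7.31e-08), and the other falls included TBL1X, an exchange factor for corepressors (-0.55), and FKBP4, the cochaperone that helps GR reach the nucleus (-0.30). The 2 rises, HSPA8 and the coactivator NCOA1 (0.23), were both lost without siBCOR vehicle replicate 2, without siBCOR vehicle replicate 4 and without siBCOR dexamethasone replicate 1. In 7 other settings that left out 1 library, among them each of the other siBCOR dexamethasone libraries, 1 of the 2 was lost. BCOR went from 23.5, 22.3, 21.8 and 21.9 to 15.5, 14.8, 14.9 and 13.8 CPM and so fell further with hormone in the depleted cells (log2 fold change -0.60 ± 0.122, adjusted p = 0.00157).

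Of 25 tested NF-kB pathway and inflammatory genes, 7 rose (28%) and 1 fell (4%), against 10.4% and 12.5% of all genes tested. The list as a whole did not shift, with a median log2 fold change of -0.0107 against 0.00349 over all genes. The rises included the inhibitors NFKBIA, which holds NF-kB in the cytoplasm, from 29, 33, 31.3 and 28.9 to 182, 190, 189 and 186 CPM (log2 fold change 2.61 ± 0.069, adjusted p = 1.05e-14), and TNFAIP3, a deubiquitinase of the pathway (log2 fold change 1.15 ± 0.0918, adjusted p = 4.44e-08). PLAUR, the urokinase receptor (2.01), and BIRC3, an inhibitor of apoptosis (3.08), rose as well, with TRAF1, BIRC2 and TNIP2 by less. NFKBIZ fell (-0.47), a call lost without siBCOR vehicle replicate 3 and without siBCOR dexamethasone replicate 4, while 3 fell without the 2 siNON libraries that stand apart and 2 without siBCOR vehicle replicate 1 or siNON dexamethasone replicate 4. Among 26 immediate early genes, 5 rose (19.2%) and 9 fell (34.6%). PHLDA1, a pleckstrin homology protein, rose by most (log2 fold change 3.29 ± 0.088, adjusted p = 1.13e-14), and ELK1, a partner of serum response factor, rose too (log2 fold change 1.34 ± 0.0852, adjusted p = 2.06e-09), as did CCN2, FOSL2 and NR4A1. The fallen were KLF10 (-1.17), EGR2 (-1.27), NR4A3 (-1.09), ATF3 (-0.93), IER5 (-0.89), NR4A2 (-0.88), IER3 (-0.81), JUN (-0.80) and FOSB (-0.57). MAP kinase feedback genes went down more often than up, with 2 of 19 higher (10.5%), DUSP1 and ERRFI1, and 8 lower (42.1%). Those were 5 DUSP phosphatases, led by DUSP5 (log2 fold change -1.12 ± 0.11, adjusted p = 6.33e-07), with SPRY1, LRIG3 and IL17RD.

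Clock genes moved in both directions, 9 of 22 upward (40.9%) and 5 downward (22.7%), against 10.4% and 12.5% of all genes tested. PER1 (chromosome 17, 8043788 to 8055753), a repressor of the clock's core loop, went from 34.7, 39, 33.9 and 36.8 to 271, 252, 307 and 215 CPM (log2 fold change 2.86 ± 0.139, adjusted p = 8.98e-11). The libraries were apart, with dexamethasone replicate 4 the lowest of its group. CRY2 (1.05), PER2 (1.08) and CIART (1.47), which also repress the loop, rose together with the activators ARNTL (0.56) and CLOCK (0.76). BHLHE40 (-1.33) and BHLHE41 (-0.91), repressors of the same promoters, fell, as did HLF, NPAS2 and CSNK1E. The number of fallen clock genes was 3 without siBCOR vehicle replicate 2, without siBCOR vehicle replicate 4 or without siBCOR dexamethasone replicate 1. Of 15 tested KLF factors, KLF15 and KLF7 rose (13.3%) and 4 fell (26.7%), KLF10, KLF13, KLF11 and KLF3. Without siNON vehicle replicate 3 and siNON dexamethasone replicate 4 the KLF rises numbered 4.

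Growth control genes moved in both directions. Among 23 CDK inhibitors and growth brakes, 5 rose (21.7%) and 9 fell (39.1%), against 10.4% and 12.5% of all genes tested. Yet the 2 largest changes were rises of CDK inhibitors. CDKN1A (chromosome 6, 36646487 to 36655116), which encodes p21, went from 55.1, 66.7, 58.1 and 58 to 366, 369, 406 and 387 CPM (log2 fold change 2.68 ± 0.0696, adjusted p = 8.3e-15). CDKN1C (chromosome 11, 2904448 to 2906995), which encodes p57, went from 1.14, 1.83, 0.94 and 1.39 to 32.9, 30.5, 35.7 and 27 CPM (log2 fold change 4.57 ± 0.153, adjusted p = 3.47e-13). Both were far above vehicle in every dexamethasone library. The INK4 inhibitors moved down instead, CDKN2B by a log2 fold change of -0.58, CDKN2C -0.33 and CDKN2D -0.30, and the antiproliferative BTG1 fell (-0.99) where BTG2 rose (0.95). Of 33 growth drivers and growth factors, 6 rose (18.2%) and 11 fell (33.3%). Next to MYC, the D-type cyclins CCND1 (-0.84) and CCND2 (-0.82), the FGF receptors FGFR2 (-1.10), FGFR3 (-0.62) and FGFR4 (-0.38), FGF9 (-1.37) and IGF2 (-0.83) were lower. The growth factors FGF18 (3.27) and PDGFA (2.03), the receptor EGFR (0.89), and MYCN, MYCL and CCNE2 were higher.

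Cell cycle genes were called at shares near those of all genes tested (10.4% higher and 12.5% lower). Of 44 G1/S and replication genes, 3 rose (6.82%) and 4 fell (9.09%). SLBP, which handles histone mRNA, changed most (log2 fold change 0.76 ± 0.0508, adjusted p = 4.04e-09), and MCM4, a helicase subunit, fell by a log2 fold change of -0.20. In the G2/M list 4 of 45 rose (8.89%), with TACC3, a spindle protein, first (log2 fold change 0.69 ± 0.057, adjusted p = 6.84e-08), and 7 fell (15.6%), among them CKS2 (-0.62), AURKB (-0.28) and PLK1 (-0.27). These small counts moved with the libraries in the fit, as did the counts over all genes. The G2/M rises numbered 15 without siNON vehicle replicate 3 and siNON dexamethasone replicate 4, and 10 and 8 without each of these alone, in that order. Over all genes the rises went from 1715 to 3096, 2379 and 2181 in these fits. The G2/M rises numbered 2 without siBCOR dexamethasone replicate 1 or 3 (1306 and 1427 over all genes). They numbered 1 without dexamethasone replicate 4 or vehicle replicate 2 (1398 and 1456 over all genes). The G1/S rises numbered 7 without the 2 siNON libraries and 5 without siNON dexamethasone replicate 4, and the G1/S falls 2 without siBCOR vehicle replicate 1.

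In PI3K, mTOR and FOXO control, 7 of 31 genes rose and 7 fell (22.6% each), against 10.4% and 12.5% of all genes tested. The list median was a log2 fold change of -0.0576. SGK1, FOXO4 (log2 fold change 1.35 ± 0.0674, adjusted p = 7.36e-11), the regulatory subunit PIK3R1 (1.20) and the catalytic PIK3CA (0.88) rose. The pseudokinases TRIB1 (log2 fold change -1.55 ± 0.0768, adjusted p = 6.47e-11), TRIB2 (-0.92) and TRIB3 (-0.74) fell, with IRS4, PIK3R3, AKT1 and DDIT4L. Fuel metabolism genes also split, with 8 of 40 up (20%) and 10 down (25%) and a median of 0.00361. SLC2A3 (chromosome 12, 8071824 to 8088892), the high-affinity glucose carrier, went from 22.7, 21.5, 17.9 and 18 to 175, 172, 166 and 181 CPM (log2 fold change 3.11 ± 0.0785, adjusted p = 6.02e-15). G6PC, the last enzyme of glucose release (3.41), TXNIP, which limits glucose uptake (1.33), and the acyl-CoA ligases ACSL5 (2.51) and ACSL1 (1.63) rose. PCK1, whose counts were low, and PCK2 (-0.66), both gluconeogenic enzymes, and the coactivator PPARGC1A (-0.46) fell. The fuel falls numbered 6 without siBCOR vehicle replicate 2 or without siBCOR dexamethasone replicate 4.

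Cholesterol synthesis and SREBP target genes went down more often than up, 9 of 30 (30%) against 2 up (6.67%). Over all genes tested 12.5% fell and 10.4% rose. INSIG1, which holds SREBP in the endoplasmic reticulum, went from 507, 472, 495 and 501 to 222, 233, 231 and 228 CPM (log2 fold change -1.11 ± 0.0477, adjusted p = 9.77e-12), and HMGCS1, an early enzyme of the pathway, from 402, 343, 437 and 416 to 194, 185, 177 and 193 CPM (log2 fold change -1.09 ± 0.115, adjusted p = 1.72e-06). Neither overlapped. SREBF1 (-0.74), SREBF2 (-0.31) and SQLE (-0.54) fell too. NSDHL, a late enzyme of sterol synthesis, was among the risen (log2 fold change 0.64 ± 0.0704, adjusted p = 2.3e-06). The rises numbered 4 without siNON vehicle replicate 3 or siNON dexamethasone replicate 4, and 1 without siBCOR vehicle replicate 4. Metallothioneins and zinc carriers went 1 way: 6 of 21 rose (28.6%) and 0 fell by edgeR, by DESeq2 or at an unadjusted p under 0.05. The rises were led by SLC30A1, the zinc exporter of the cell surface (log2 fold change 1.35 ± 0.13, adjusted p = 4.35e-07), and MT1X (log2 fold change 1.33 ± 0.128, adjusted p = 4.46e-07). Of 31 sodium and amino acid transport genes, 8 rose and 8 fell (25.8% each). Besides the SLC6 genes, the sodium channel subunits SCNN1G (2.49) and SCNN1A and the glutamate carrier SLC1A3 (0.83) rose. The amino acid carriers SLC7A5 (-0.81), SLC1A5 (-0.69) and SLC43A1 (-0.70) were lower.

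HOX genes, which set position along the body axis and are classical Polycomb targets, fell almost throughout, with a median log2 fold change of -0.862. Of 36 tested, 30 were lower (83.3%) and 1, HOXB4 (0.52), was higher (2.78%), against 12.5% and 10.4% of all genes. All 11 HOXA and all 8 tested HOXC genes fell, with medians of -1.13 and -0.71, against 6 of 8 HOXD genes (-0.81) and 5 of 9 HOXB genes (-0.69). HOXA9 (chromosome 7, 27202057 to 27205149) stood at 162, 153, 170 and 164 CPM in vehicle and at 43.5, 41.8, 44.9 and 38.3 CPM with dexamethasone (log2 fold change -1.94 ± 0.0641, adjusted p = 2.67e-13). HOXA10 went from 128, 116, 130 and 127 to 38.7, 40.5, 40.2 and 41 CPM (log2 fold change -1.64 ± 0.0684, adjusted p = 6.7e-12), and HOXC4 from 36.2, 42.2, 38.8 and 39.1 to 14.9, 15, 15.5 and 13.1 CPM (log2 fold change -1.41 ± 0.0785, adjusted p = 3.24e-10). None of the 3 had overlapping groups. In siNON cells the cluster medians were -1.09, -0.85, -0.72 and -0.91 for HOXA to HOXD in order. In the test of the difference between the 2 kinds of cell 0 HOX genes were called by edgeR or DESeq2. Over all genes edgeR called only 0.0183% above 0 and 0.0852% below in that test, so a list of this size would rarely hold a call. An unadjusted p under 0.05 was found for 5 of the 36 HOX genes, against 19.0% of all genes tested.

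Other developmental transcription factors shared this direction, with a median of -0.436. Of 59 tested, 4 were higher (6.78%) and 30 lower (50.8%), against 10.4% and 12.5% of all genes. Next to SOX4 these included the neural factors POU3F2 (log2 fold change -1.46 ± 0.0799, adjusted p = 2.74e-10), ZIC2 (-1.33) and SOX2 (-1.13), and the kidney and mesoderm factors FOXC1 (log2 fold change -1.41 ± 0.0833, adjusted p = 7.58e-10), EYA1 (-1.21) and WT1 (-0.69). SOX9 (1.31), SOX18 (0.93), FOXC2 (0.87) and MSX2 (0.58) rose. HEK293 markers moved with this list: 7 of 14 fell and 1, KRT8, rose, and their summed level was 1881.7 to 2068.0 CPM in vehicle and 1686.0 to 1759.4 CPM with hormone. The 2 lists share members, LHX1 and PAX2 among them, and the part of the marker shift in the result was not tested. Of 29 ID, HES and Notch pathway genes, 10 fell (34.5%) and 2 rose (6.9%). HES1, HEY1 (-1.05), HEY2 (-0.82), HEYL (-0.45) and NRARP (-0.79), all targets of Notch, were lower together with NOTCH1 (-0.71), while the ligands JAG1 (0.68) and DLL4 (0.58) were higher. Without siBCOR vehicle replicate 1 or 4, or dexamethasone replicate 1, 3 or 4, the Notch rises numbered 1.

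Wnt and TGF-beta family genes were also lower more often than higher. Of 42 Wnt pathway genes, 18 fell (42.9%) and 2 rose (4.76%), against 12.5% and 10.4% of all genes tested. LGR5, a receptor that strengthens Wnt signals, fell by most (log2 fold change -1.35 ± 0.0819, adjusted p = 1.09e-09), followed by WNT11 (-0.93), RNF43 (-0.87) and WNT5A (-0.75); AXIN2 (-0.39) and LEF1 (-0.35), which respond to the pathway, fell by less. The receptors FZD7 (0.71) and FZD4 (0.61) rose, and the Wnt rises numbered 4 without siBCOR vehicle replicate 2 or without the 2 siNON libraries. In the TGF-beta and BMP list 13 of 40 fell (32.5%), among them BAMBI (-0.67), SMAD3 (-0.62), BMP7 (-0.55) and TGFB2 (-0.82). The repressor TGIF1 was the 1 rise (log2 fold change 0.81 ± 0.0688, adjusted p = 8.67e-08); without the 2 siNON libraries there were 3.

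Cell surface and matrix genes followed the same direction. Of 28 cadherins and protocadherins 14 fell (50%) and 1, FAT2 (0.76), rose (3.57%), against 12.5% and 10.4% of all genes. The list median was -0.341. PCDH19 (chromosome X, 99546642 to 99665271), an adhesion protein of the nervous system, went from 82.7, 72.6, 73.3 and 73.3 to 26.4, 25.7, 30.2 and 23.2 CPM (log2 fold change -1.52 ± 0.104, adjusted p = 5.71e-09), and PCDH7 (-1.30), CDH3 (-1.06) and CDH1 (-0.62) were lower as well. The call of FAT2 was lost without siBCOR vehicle replicate 2 or 4 and without dexamethasone replicate 2, while 2 members rose without siBCOR vehicle replicate 1 or siNON vehicle replicate 3, and 3 without the 2 siNON libraries. Among 43 semaphorins, neuropilins and axon guidance genes, 20 fell (46.5%) and 5 rose (11.6%), with a median of -0.335. The coreceptors NRP1, from 63.4, 52.8, 57.8 and 57.5 to 22.3, 21.2, 22 and 21.1 CPM (log2 fold change -1.42 ± 0.0786, adjusted p = 3.22e-10), and NRP2 (log2 fold change -1.39 ± 0.0989, adjusted p = 9.41e-09) fell, as did the netrin receptors UNC5B (-1.77) and UNC5C (-1.14) and the Slit receptors ROBO2 (-1.02) and ROBO1 (-0.48). The receptor EPHB3 (1.35) led the rises.

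Of 49 matrix, integrin and matrix protease genes, 22 fell (44.9%) and 5 rose (10.2%), against 12.5% and 10.4% of all genes tested. The list median was -0.254. Below ADAMTS1 came MMP2 (-0.62), FN1, fibronectin (-0.63), LAMA4 (-0.61), and the inhibitors TIMP3 (-0.57), TIMP2 (-0.52) and TIMP1 (-0.28). ADAMTS9, a close relative of ADAMTS1, rose instead (log2 fold change 1.21 ± 0.099, adjusted p = 5.69e-08), along with ITGA6, MMP15, ITGB1 and SDC2. The rises numbered 9 without siNON vehicle replicate 3. In siNON cells 8 of the 49 matrix genes fell and 3 rose, against 8.59% and 10.6% of all genes tested. In the test of the difference 0 matrix genes were called by edgeR or DESeq2. Over all genes edgeR called only 0.0183% above 0 and 0.0852% below in that test. An unadjusted p under 0.05 was found for 15 of the 49 matrix genes, against 19.0% of all genes tested. Of 26 RGS and related genes, 5 rose (19.2%), RASD1, RGS2, RGS19, GRK5 and AKAP12, and 6 fell (23.1%), led by GPRC5A and RGS16.

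Of 30 unfolded protein and integrated stress genes, 9 fell (30%) and 3 rose (10%), against 12.5% and 10.4% of all genes tested. The fallen were mainly ATF4 targets, STC2 (log2 fold change -1.22 ± 0.13, adjusted p = 2.19e-06), DDIT3 (-0.80), TRIB3, ASNS (-0.66), PSAT1 (-0.49) and SHMT2 (-0.30), with ATF4 itself at -0.54. HERPUD1 (0.54), DNAJB9 (0.66) and SDF2L1 (0.35), chaperones and helpers of the endoplasmic reticulum, rose. Without the 2 siNON libraries 14 fell and 6 rose, and 5 rose without either of them. Of 22 heat shock genes, 6 rose (27.3%), with HSPA2 first (log2 fold change 1.38 ± 0.0976, adjusted p = 8.32e-09). HSPA1A, HSPA1B and HSPB8 fell (13.6%), and the rises numbered 3 without siBCOR vehicle replicate 2 or dexamethasone replicate 4. Of 30 interferon-stimulated genes, 4 rose (13.3%), near the share of all genes, and 2 fell (6.67%), with a median log2 fold change of -0.00667. IFIT3 (1.18), HERC5 (0.70), DDX58 (0.49) and USP18 (0.18) rose and BST2 (-0.53) and IFI35 (-0.26) fell. Both interferon falls were lost without siBCOR vehicle replicate 2 or 4 and without any 1 of dexamethasone replicates 1, 3 and 4, and the rises numbered 2 without vehicle or dexamethasone replicate 4.

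Genes of the Polycomb complexes were called about as often as genes at large, at 9.09% higher and 18.2% lower in PRC1.1 and 8.33% and 16.7% in PRC2, against 10.4% and 12.5% over all tested. In PRC1.1, of 11 tested genes BCOR and KDM2B, which recruits the complex to CpG islands (log2 fold change -0.30 ± 0.0813, adjusted p = 0.0132), fell and SKP1 rose (log2 fold change 0.19 ± 0.0655, adjusted p = 0.0499). The call of SKP1 was lost without any 1 of 7 siBCOR libraries, dexamethasone replicate 3 being the exception, and without any 1 of 5 siNON libraries, and that of KDM2B without dexamethasone replicate 4. In PRC2, JARID2 (-0.39) and EPOP (-0.34) fell and PHF19 (0.29) rose among 12 genes. EPOP lost its call without siBCOR vehicle replicate 2 or dexamethasone replicate 4, and 4 genes rose without the 2 siNON libraries, or 2 without either of them. Of 58 respiratory chain subunits, UQCRB (0.40) and COX5B (0.32) rose and 0 fell by edgeR, by DESeq2 or at an unadjusted p under 0.05, although 2 fell without siBCOR dexamethasone replicate 4. COX5B had overlapping groups and lost its call without siBCOR vehicle replicate 1 or 3 and without dexamethasone replicate 1 or 2. Of 55 ribosomal protein genes 0 rose by edgeR or DESeq2, 1 was higher at an unadjusted p under 0.05, and 1 rose without siBCOR dexamethasone replicate 3 or without either siNON library that stands apart. RPL28 fell (-0.35), with overlapping groups and a call lost without siBCOR vehicle replicate 2 or 4 and without dexamethasone replicate 1 or 2. Among markers of other cell types, those of fibroblasts summed highest, at 39.7 to 57.2 CPM in vehicle and 35.3 to 45.5 CPM with hormone; of 4 tested, PDGFRA rose (log2 fold change 0.43 ± 0.122, adjusted p = 0.0162), a call lost without siBCOR dexamethasone replicate 3, and COL1A1, which made up most of the sum, was not called (-0.35). Immune markers summed to 11.4 to 15.8 and 11.6 to 12.7 CPM, with log2 fold changes from -0.39 to -0.08 over 4 tested. Summed endothelial markers stood at 4.62 to 5.1 CPM in vehicle and 6.25 to 7.25 CPM with hormone; 1 of 6 tested, the ETS factor ERG, rose (log2 fold change 1.65 ± 0.194, adjusted p = 5.37e-06). Hepatocyte markers summed to 1.35 to 1.78 and 1.94 to 2.82 CPM; of 2 tested, TF, transferrin, rose (log2 fold change 1.30 ± 0.229, adjusted p = 0.00042) and FGB, a fibrinogen chain, was not called (-0.61).

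**Figure D3:**
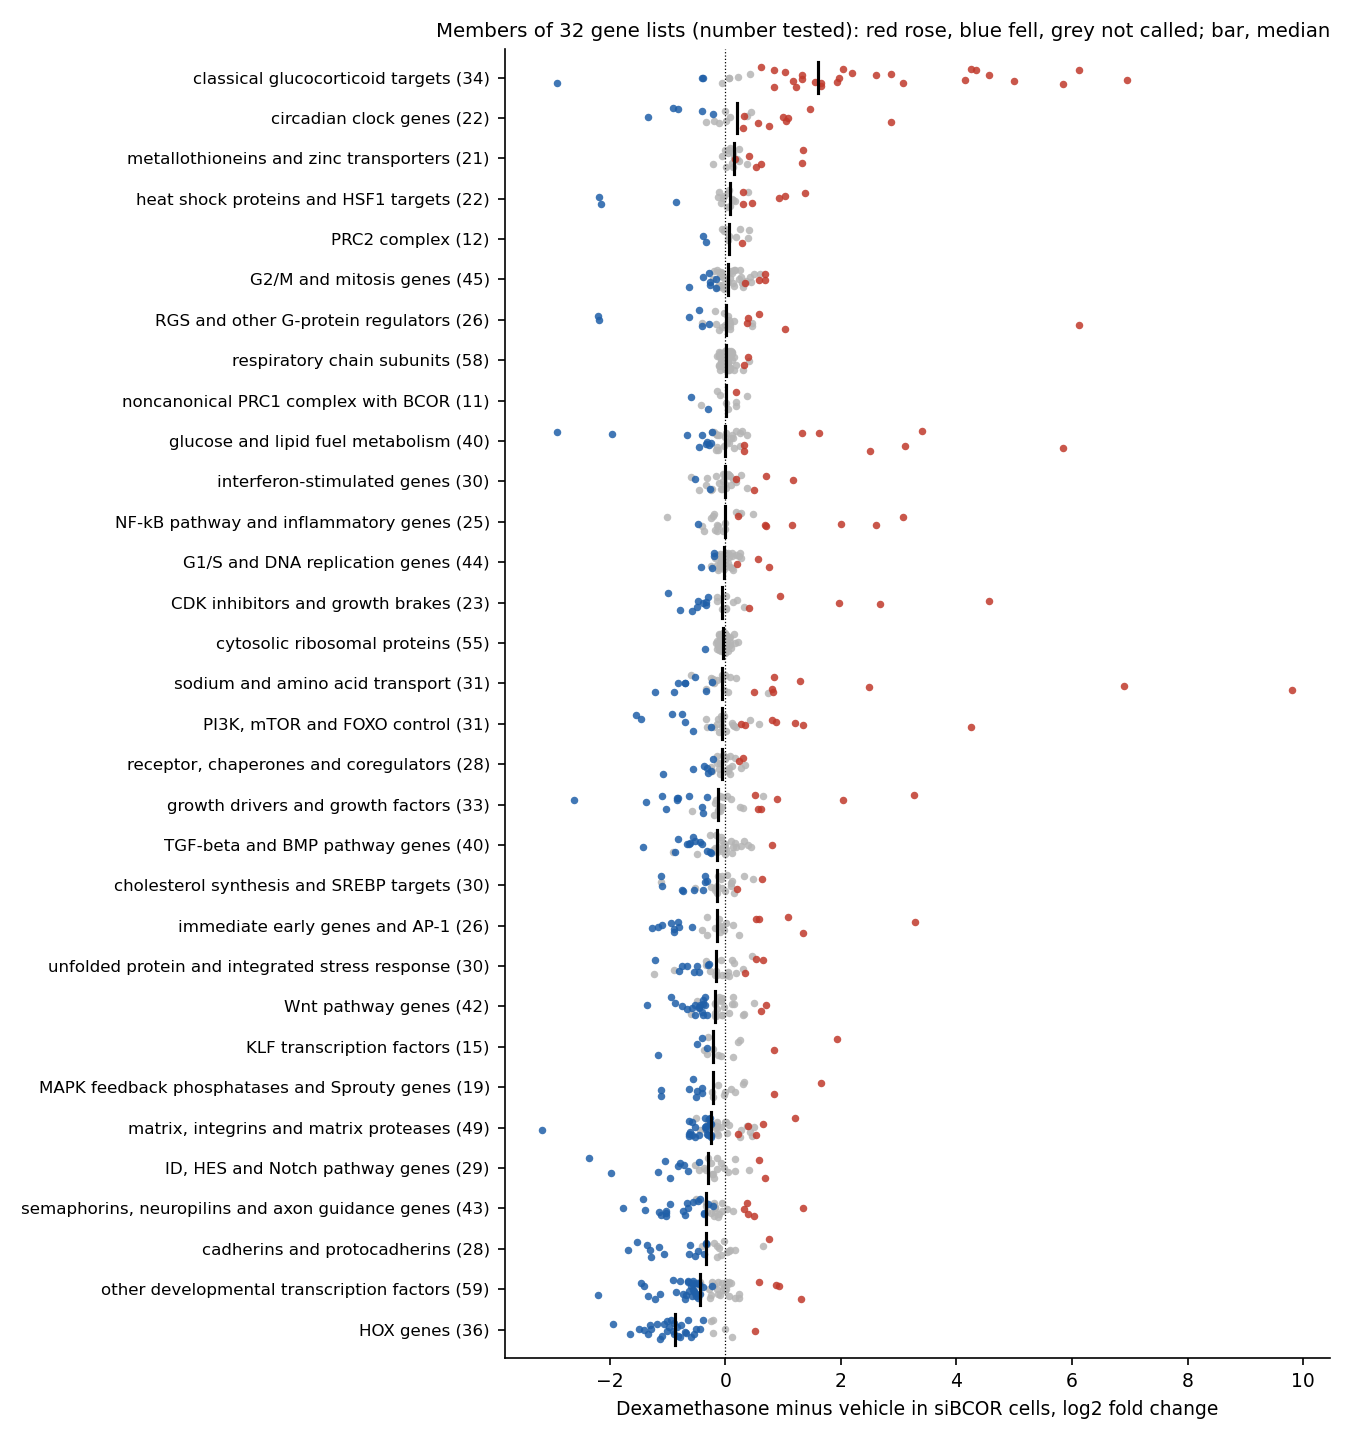
Log2 fold change of every tested member (points) of 32 gene lists in siBCOR cells, with the number tested in brackets and the median as a bar. Red points rose, blue points fell and grey points were not called; classical glucocorticoid targets sit highest with a median of 1.60 and HOX genes lowest with -0.862.

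To ask whether the response depended on BCOR, the same contrast was taken in siNON cells and the difference between the 2 responses was tested. In siNON cells 1748 genes rose (10.6% of those tested) and 1411 fell (8.59%). Of the genes that rose in siBCOR cells, 980 also rose in siNON cells, which is 57.1% of the former and 56.1% of the latter. Of those that fell, 922 also fell in siNON cells, 44.7% and 65.3%. At 2-fold or more in siBCOR cells, 354 of 406 risen genes (87.2%) were called in the same direction in siNON cells and 394 had the same sign, as did 159 (87.8%) and 179 of 181 fallen genes. The difference of the responses passed the test for 17 genes, 3 above 0 (0.0183%) and 14 below (0.0852%), while 3129 genes (19.0%) had an unadjusted p under 0.05. This count was unstable: leaving out 1 library at a time gave 0 to 1354 above and 2 to 1075 below, lowest without siBCOR dexamethasone replicate 1 and highest without siNON dexamethasone replicate 4. Without the latter library and siNON vehicle replicate 3 it was 1170 and 601. DESeq2 on all libraries called 32 above and 35 below.

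PDGFA, the A chain of platelet-derived growth factor, showed the largest difference among the 13 of these genes that the naming rule takes. In siBCOR cells it stood at 2.6, 2.89, 1.88 and 2.46 CPM in vehicle libraries 1 to 4 and at 9.4, 10.5, 10.9 and 9.44 CPM with hormone (log2 fold change 2.03 ± 0.122, adjusted p = 1.01e-09). In siNON cells it stood at 3.26, 3.29, 2.5 and 2.71 CPM and 46.2, 44.1, 45.5 and 38.6 CPM. With hormone every siBCOR library was far below every siNON library, while the vehicle libraries overlapped (difference -1.86 ± 0.171 on the log2 scale, adjusted p = 7.27e-05). ACSL1, which activates long-chain fatty acids, went from 79.9, 73.4, 82.3 and 70.7 to 245, 222, 236 and 246 CPM in siBCOR cells and from 62.3, 63.6, 67.9 and 60.3 to 302, 312, 291 and 310 CPM in siNON cells (difference -0.63 ± 0.0838 on the log2 scale, adjusted p = 0.00782). Every siBCOR library of ACSL1 was above the siNON libraries in vehicle and below them with hormone. NSDHL, the sterol dehydrogenase, went from 62.2, 61.2, 62.2 and 60 to 90.9, 100, 87.6 and 104 CPM against 56.2, 48.5, 52 and 60.8 to 132, 136, 140 and 138 CPM in siNON cells (difference -0.69 ± 0.0993 on the log2 scale, adjusted p = 0.0143). PDGFA and ACSL1 were called in all 25 alternative settings, with the adjusted p at most 0.000649 and 0.0392, and NSDHL in 23 of 25.

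Differences below 0 were called for 8 more genes. APOLD1, an endothelial early response gene, went from 11.8, 11.6, 12.3 and 9.46 to 203, 168, 192 and 185 CPM in siBCOR cells and reached 367, 391, 336 and 378 CPM in siNON cells (difference -0.98 ± 0.169 on the log2 scale, adjusted p = 0.035). S100P reached 66.6, 62.4, 66.7 and 60.9 CPM against 116, 105, 131 and 106 CPM in siNON cells (difference -1.40 ± 0.257 on the log2 scale, adjusted p = 0.0457). That difference also takes in low vehicle levels, 0.671, 0.916, 0.692 and 0.789 CPM against 0.518, 0.822, 0.338 and 0.406 CPM in siNON cells. These were 67 and 47 counts over the 2 vehicle groups. For APOLD1 and S100P, no hormone-treated library of one kind of cell overlapped with the other kind. ELK1 (1.34 in siBCOR cells against 2.06 in siNON cells), SNX33, a sorting nexin (1.13 against 1.76), and SLC39A14, a zinc and iron importer (0.53 against 1.01), rose in both. GLUL fell in siBCOR cells (-0.41) and stood at 0.06 in siNON cells (adjusted p = 0.574). INSIG1 had a log2 fold change of -1.11 in siBCOR cells and of -0.72 in siNON cells. SHC1, an adaptor of receptor tyrosine kinases, had a log2 fold change of -0.04 in siBCOR cells (adjusted p = 0.62) and rose by 0.40 in siNON cells (adjusted p = 5.75e-05).

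In the other direction, RHOU, a small GTPase induced by Wnt signals, rose from 40.6, 32.1, 37.8 and 34.2 to 131, 126, 121 and 118 CPM in siBCOR cells and from 42.7, 46.4, 53.2 and 45.7 to 94.9, 93.8, 90.1 and 108 CPM in siNON cells (difference 0.73 ± 0.119 on the log2 scale, adjusted p = 0.0345). FJX1, a secreted protein of the Fat cadherin pathway, stood at 29.3, 28.4, 27.4 and 28.9 and 27.5, 29.3, 29.1 and 25.2 CPM in siBCOR cells, where the groups overlapped (log2 fold change -0.04 ± 0.0924, adjusted p = 0.805). In siNON cells it fell from 28.1, 25.1, 23.8 and 28.8 to 16.3, 17.5, 14.3 and 12.6 CPM (difference 0.77 ± 0.133 on the log2 scale, adjusted p = 0.035). Apart from PDGFA, ACSL1 and NSDHL, the named differences were called in 4 to 13 of 25 settings and kept their sign in all of them. Highest adjusted p-values over the settings ran from 0.0945 for RHOU to 0.224 for SHC1. The other 4 called genes had too few counts for the naming rule and were looked up after the test: RTL9 (-1.43), SNORD137 (-2.15), TUBA3FP (-1.43) and SOX18 (1.17).

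**Figure D4:**
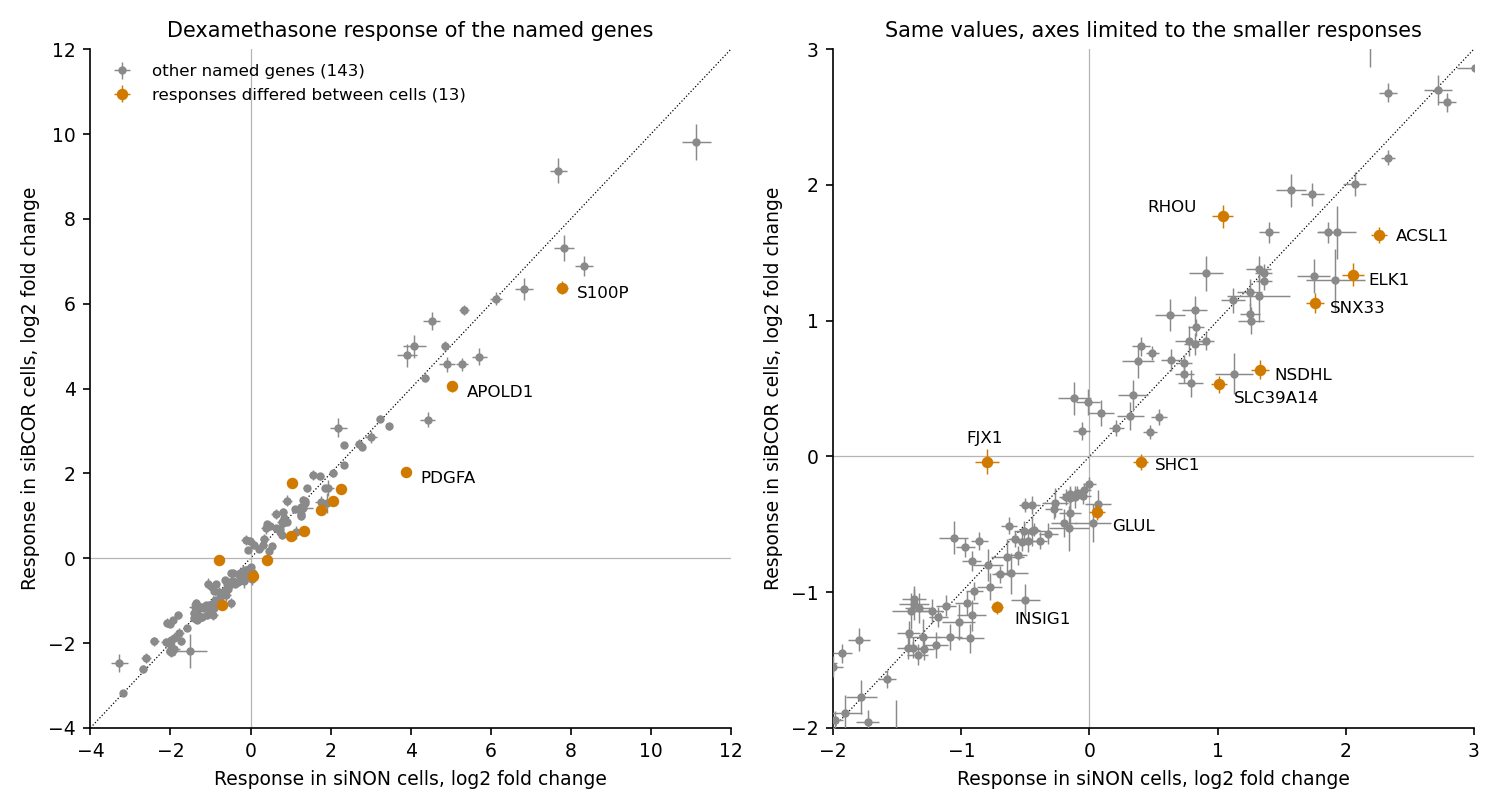
Log2 fold change with dexamethasone in siBCOR cells (vertical axis) against siNON cells (horizontal axis) for the named genes, with standard errors as bars; the right panel shows the smaller responses on narrower axes. Orange points are the 13 named genes whose responses differed by the test, with 11 below the dotted line of equal response and RHOU and FJX1 above it.

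BCOR peaks from cells without a named siRNA were set beside these genes, to show where BCOR binds in HEK293-GR cells. The authors' lists hold 3055 dex-enriched, 267 vehicle-enriched and 8587 shared peaks, and how peaks were put in a class is not stated. Of the genes that rose at least 2-fold in siBCOR cells, 94 of 406 (23.2%, 95% Wilson interval 19.3 to 27.5) had a dex-enriched peak within 10 kb of the start site. The share was 4.08% over all tested genes, 2.80% for genes not called and 2.21% (4 of 181; 0.863 to 5.54) for genes that fell at least 2-fold. Within 10 kb, shared peaks were placed the other way. They lay near 43.1% (36.1 to 50.4) of genes that fell at least 2-fold, 22.4% of those that rose at least 2-fold and 26.4% of all tested. Within 2 kb the share for genes that fell at least 2-fold was 22.1% (16.7 to 28.7), close to the 20.1% of all tested. Neighbouring genes, such as those of a HOX cluster or TIPARP and TIPARP-AS1, can share a peak, which the intervals do not take into account.

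Dex-enriched peaks lay close to the start sites of several of the genes with the largest responses. The centre of the nearest lay 0.19 kb upstream of TIPARP, 0.31 kb upstream of S100P and 0.62 kb upstream of PDK4. Inside genes, it lay 0.53 kb into PER1 and 1.03 kb into FKBP5. Of the genes whose response differed between the 2 kinds of cell, ACSL1 (1.29 kb upstream), ELK1 (1.31 kb inside), S100P, SNX33 (2.00 kb upstream) and SLC39A14 (4.84 kb upstream) had such a peak within 10 kb, and the other 8 did not. The share was 4.08% over all tested genes and 23.2% over genes that rose at least 2-fold, which include ACSL1, ELK1, S100P and SNX33. A link between these peaks and the difference between cells was not tested. Among named genes that fell, NRP2 had one at its start site, DUSP16 one 1.20 kb upstream, HOXC4 one 1.34 kb upstream and KDM2B one 0.10 kb inside. Shared peaks lay within 0.5 kb of the starts of fallen genes such as ID4, RGS16, ARRDC4, HOXA9 and TRIB1 and of risen genes such as RASD1, PHLDA1, CKB, KLF15, BTG2 and SLC1A3. The HOX clusters held mostly shared peaks: 6 in HOXA, 10 in HOXB, 5 in HOXC and 5 in HOXD, with 1 dex-enriched peak each in HOXB and HOXC.

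**Figure D5:**
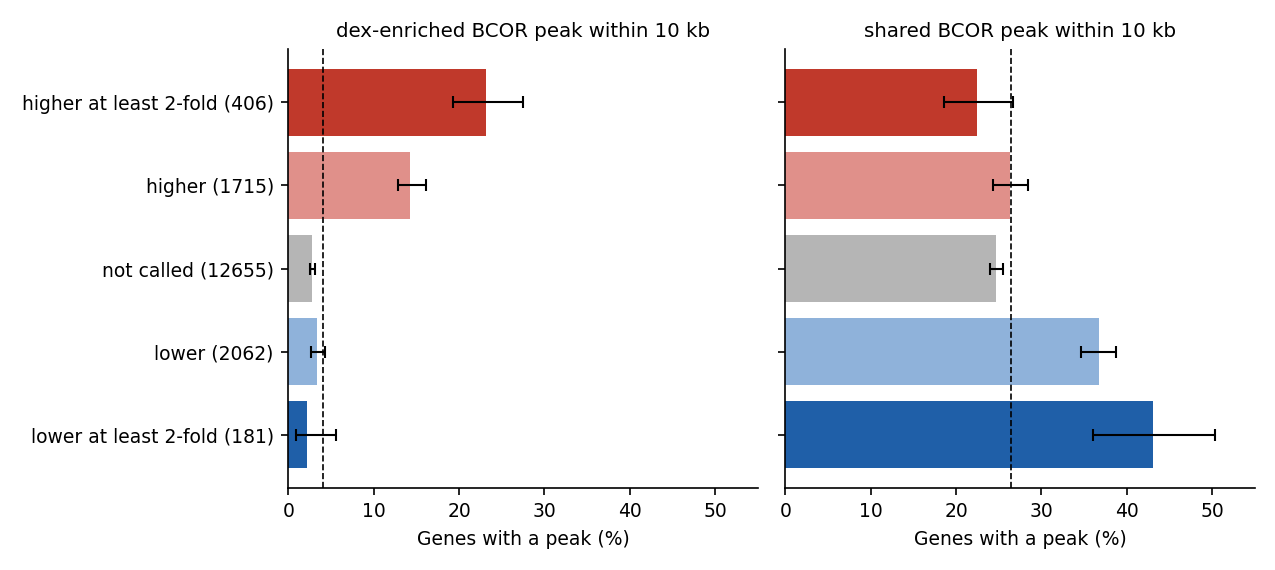
Percentage of genes with a dex-enriched (left) or shared (right) BCOR peak within 10 kb of the start site, by response class in siBCOR cells with the number of genes in brackets, with 95% Wilson intervals; dashed lines mark all tested genes. Dex-enriched peaks are most frequent near genes that rose at least 2-fold (23.2%) and shared peaks near genes that fell at least 2-fold (43.1%). Within 2 kb, not drawn, shared peaks lay near 22.1% of the latter and 20.1% of all tested genes.

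GR is known to bind inverted repeats related to the spaced pair of half-sites written GNACA and TGTNC, held apart by 3 bases of any kind, a pattern that reads the same on both strands. RefSeq promoters (build GRCh38.p14, 1 start site per gene, 250 bases before to 50 after it) were searched for it, and 106 of 27305 promoters (0.388%) held a match. Among genes with changes of at least 2-fold, 6 of 301 risen and 2 of 131 fallen genes with a promoter in the table had one. Promoters were found for only 74.1% and 72.4% of these genes and for 78.6% of all tested, so a comparison of the shares is void. The 8 matches are shown with their surroundings, 5′ to 3′ on the gene's strand with the matched bases in capitals, because they are the closest such elements to genes of large response; a match is a description and not a binding site.
WNT16 (chr7:121328804-121328844, plus strand): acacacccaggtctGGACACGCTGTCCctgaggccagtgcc
SLC38A11 (chr2:164955603-164955643, minus strand): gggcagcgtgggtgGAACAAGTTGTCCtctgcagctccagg
KCNA5 (chr12:5043655-5043695, plus strand): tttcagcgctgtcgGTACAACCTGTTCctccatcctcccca
LOC100129434 (chr2:56185925-56185965, minus strand): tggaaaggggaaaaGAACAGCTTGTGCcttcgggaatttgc
MAP3K6 (chr1:27367087-27367127, minus strand): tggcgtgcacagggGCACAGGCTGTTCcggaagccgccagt
TXNIP (chr1:145996728-145996768, minus strand): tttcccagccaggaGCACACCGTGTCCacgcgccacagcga
HOXA-AS3 (chr7:27146976-27147016, plus strand): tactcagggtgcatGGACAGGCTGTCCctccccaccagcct
EPHA4 (chr2:221574232-221574272, minus strand): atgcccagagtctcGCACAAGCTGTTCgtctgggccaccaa
The Wnt ligand gene WNT16 rose by a log2 fold change of 3.49, the amino acid transporter gene SLC38A11 by 2.94, and the potassium channel gene KCNA5 by 2.77. LOC100129434 (1.98), the kinase gene MAP3K6 (1.38) and TXNIP (1.33) rose too. HOXA-AS3, an antisense RNA of the HOXA cluster (-1.20), and the guidance receptor EPHA4 (-1.02) fell. The 8 genes were taken from those with called changes of at least 2-fold, out of 29 tested genes with a match, 16 of which were not called. The matches began between 210 bases (KCNA5) and 56 bases (EPHA4) before the start site.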

How the data were processed

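Poly(A) RNA of 16 HEK293-GR libraries was sequenced, and the authors deposited raw read counts over exons for 65572 RefSeq transcripts in hg19, made with HOMER and, per the file headers, not adjusted for depth. The submitters' processing notes name FastQC, Trimmomatic, TopHat2, HOMER 4.10.3, Bowtie 0.12.9 and bedtools, and the strand setting of the counting is not given in the sources used here. The authors deposited peaks in 3 lists whose score column is 0 for every peak, so peaks were not ranked.

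Each of 27896 symbols was represented by its best covered transcript (total reads of the 16 libraries), since isoforms share reads. The 134 transcripts without a name (0.0664% of counts) were left out. After edgeR's default filter on low counts, 16432 genes were scaled by edgeR's TMM factors and fitted with 4 group means over all 16 libraries (edgeR 4.0.16, limma 3.58.1, R 4.3.3; quasi-likelihood F test with robust spread). Every p is two-sided and Benjamini-Hochberg adjusted across the whole table, and log2 fold changes are given ± SE. On simulated data for dexamethasone against vehicle in siBCOR cells, 100% of genes set to 4-fold higher were recovered. So were 85% of those set to 2-fold higher, 87.5% to 2-fold lower, 40% to a log2 change of 0.5 and 65% to -0.5. Of 16300 genes tested, 9 unchanged ones were called. The simulation changed only 40 genes at each size and held no library that stood apart, unlike the real data, so its shares may not hold there.

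The rule names BCOR and NR3C1, the 15 called genes with the largest rise and the 15 with the largest fall (mean of at least 50 counts, groups not overlapping), and the 10 largest gains and losses in CPM. It adds up to 4 called members of each of 37 lists by adjusted p, 5 of them marker lists, and genes called in the difference between the cells with a mean of at least 50 counts. The report also gives list members beyond these, as examples of their list chosen with their values known. Some items that the rule names are not reported here. Members and lists were chosen with earlier results of these data known. Peak distances run from a peak's centre to the annotated start of the chosen transcript. Wilson intervals and the floor of 3 counts cover counting error only. Alternatives were DESeq2 1.42.0, other scalings, filters and transcript choices, a replicate block, fits on fewer libraries, other peak windows, and, chosen after seeing the data, leaving out each siNON library in turn.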

Additional observations from a re-analysis of the deposited data

Results flagged for a closer look

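In 117 groups of 4 libraries, for the 59 genes named for their size of change, their difference between cells or by the rule, 3 groups (2.56%) held a library far from the other 3 by Dixon's criterion, which chance alone gives in about 1 group of 20. NR3C1 stood at 1053.1 CPM in siBCOR vehicle replicate 2 against 1121.1 to 1129.7 CPM in the other vehicle libraries. TUBA3E stood at 0.0464 CPM, 1 count, in siBCOR vehicle replicate 4 against 0 in the other 3. IGFBP5 stood at 101 CPM in siBCOR vehicle replicate 3 against 113 CPM in each of the others.

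The dexamethasone response differed between siBCOR and siNON cells, by the test of the difference itself, for 13 named genes. The siBCOR response minus the siNON response, on the log2 scale, was -1.86 for PDGFA, -1.40 for S100P, -0.98 for APOLD1, -0.72 for ELK1, -0.69 for NSDHL, -0.63 for ACSL1 and -0.63 for SNX33. It was -0.48 for SLC39A14, -0.47 for GLUL, -0.44 for SHC1 and -0.39 for INSIG1. It was above 0 for FJX1 at 0.77 and RHOU at 0.73. Adjusted p-values ran from 7.27e-05 for PDGFA to 0.0479 for SHC1.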

How the results depend on the processing

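No named gene reversed its response in 4208 recomputed values, 4152 of which kept their side of the threshold; the 56 lost calls were of SKP1 (16 of 27 settings), HSPA8 (11), USP18 (8), COX5B (6), BST2 (5), RPL28 (4), EPOP (2), HUWE1 (2), KDM2B (1) and PDGFRA (1). Of 325 values of the 13 differences from siNON cells, 185 lost their call and 0 reversed. List counts were within 1.5 times in 1585 of 1728 values. Leaving out 1 library at a time gave 1306 to 2379 genes higher and 1570 to 2327 lower, the first count lowest without siBCOR dexamethasone replicate 1. Genes higher numbered 3096 without siNON vehicle replicate 3 and siNON dexamethasone replicate 4 and 2821 in the 8 siBCOR libraries with a replicate block. With a mean of at least 50 counts, 244 genes were higher and 118 lower at 2-fold or more. Differences from siNON cells above and below 0 numbered 32 and 35 by DESeq2, 1 and 3 with counts summed over transcripts, 1 and 3 with median-of-ratios scaling, 1 and 5 with no filter, 1 and 5 with upper-quartile scaling, 0 and 3 with the replicate block, and 1170 and 601 without the 2 siNON libraries; 6 were below with a mean of at least 50 counts. The same omissions gave 0 to 1354 above and 2 to 1075 below, both highest without siNON dexamethasone replicate 4. The cause was not tested.

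Medians of log2 fold changes moved beyond the replicate spread with upper-quartile scaling for clock genes (0.153), CDK inhibitors (-0.103), growth drivers (-0.175), cholesterol genes (-0.19), transport (-0.0993) and G1/S (-0.0708); that scaling lowers the median of all genes to -0.0388. With a mean of at least 50 counts, where fewer genes enter, they were 0.198 for NF-kB genes, 0.0883 for clock genes and -0.167 for transport; with summed counts, -0.104 for CDK inhibitors and -0.0518 for G1/S; in the 8 siBCOR libraries, -0.111 for transport, or -0.112 with the replicate block. Leaving out 1 library at a time gave 1.52 to 1.68 for classical targets, 0.155 to 0.213 for clock genes, -0.273 to -0.108 for KLF factors, -0.157 to -0.00951 for CDK inhibitors, -0.158 to -0.0772 for growth drivers, -0.0674 to 0.00741 for PI3K control, -0.0329 to 0.0568 for fuel genes, -0.185 to -0.119 for cholesterol genes, -0.157 to -0.0452 for transport and -0.462 to -0.312 for other developmental factors. Peak shares for genes at least 2-fold higher, dex-enriched then shared, were 9.61% and 17% within 2 kb, 41.1% and 42.9% within 50 kb, and 30.3% and 27.9% with a mean of at least 50 counts. For genes at least 2-fold lower, shared peaks lay near 22.1% within 2 kb and 59.1% within 50 kb, and dex-enriched near 12.2% within 50 kb. Over all tested genes these were 1.72% and 20.1% within 2 kb, 13.5% and 47.7% within 50 kb, and 28.1% for shared peaks with the stricter filter.

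Replicate numbers were not used as pairs in the main fit. Deviations of same-numbered siBCOR libraries correlated at 0.074, 0.283, -0.045 and -0.046 for numbers 1 to 4, against -0.264 to 0.201 for different numbers. Not every library correlated best with its own number, and these values do not settle whether the libraries were paired. With the replicate block over all 16 libraries, 1711 genes were higher and 2015 lower. In the 8 siBCOR libraries alone, 2821 were higher and 2374 lower with the block, and 2379 and 2298 without it. Genes with fewer than 3 counts over a group give bounds only.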
